A study of Mus musculus with 12 samples.

Results

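Rmdn3, Stk16, Imp3, Coq7, Rtl6, Mrm3, Pacrgl and D430019H16Rik are genes of varied function whose levels differed by genotype in mouse hippocampus, Pacrgl mainly after kainate. They are 8 of 8251 genes that the arrays measured by probe sets with 1 gene symbol, and 11 probe sets represent them. The genes were chosen by name from earlier results on these same arrays, because their levels differed between control and mutant animals and because none is known as a marker of glia. Their genotype differences are therefore given as a description, and nothing is read from whether they pass a test. The kainate effect averaged over the genotypes uses a contrast independent of the genotype differences and was tested. Its p-values use the same estimate of the spread as the genotype differences.

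Expression was measured in total RNA from whole hippocampi on 12 arrays, 3 in each of 4 groups. The groups were control animals given saline, control animals given kainate, mutant animals given saline and mutant animals given kainate. Animals were littermates of both sexes, aged 5 to 6 weeks, and kainate was injected intraperitoneally at 20 mg/kg, with tissue taken after 1 hour. Kainate is an agonist of glutamate receptors that evokes seizures. The RNA on an array was a pool of 3 animals, so the pool is the unit of replication and a group rests on 9 animals. The mutants had lost CREB and CREM, as the series title states. The labels give neither the alleles, the strain, a Cre driver nor the genotype of the controls, which limits what the mutants can model.

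CREB and CREM are related transcription factors that bind the cAMP response element (CRE), whose full form reads TGACGTCA and whose half-site reads TGACG on one strand and CGTCA on the other. Phosphorylated CREB recruits coactivators to such sites when synaptic activity raises calcium or cAMP, and the Crem gene also yields inducible repressors from an internal promoter. In the hippocampus this pathway is known for its part in activity-driven transcription, plasticity and neuronal survival. Among the genes described here, Coq7 encodes a hydroxylase of ubiquinone (coenzyme Q) synthesis, Mrm3 a methyltransferase for the ribosomal RNA of mitochondria, and Rmdn3 a protein of the outer mitochondrial membrane that tethers mitochondria to the endoplasmic reticulum. Imp3 is a subunit of the nucleolar complex that matures the RNA of the small ribosomal subunit. Stk16 encodes a lipid-anchored kinase of the Golgi, and Rtl6 a protein derived from the Gag part of a retrotransposon.

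Because the mutants lacked factors that bind CREs, the promoters of the genes were searched for CRE letters on both strands. The windows ran from 250 bases before to 50 bases after the transcript start, from RefSeq on build GRCm38.p6, and all 8 genes had a window of 300 bases. A full CRE lay in 2 of 8, Pacrgl and Mrm3, against 1.79% of 32851 promoter windows in the table and 2.60% of the 8408 windows of measured genes. The CRE half-site, which is part of the full form, lay in 5 of 8, the other 3 being Rtl6, Rmdn3 and Coq7, against 20.8% of all windows and 28.5% of those of measured genes. Such matches are descriptions of letters, not bound sites.

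The promoters of Pacrgl, Mrm3 and Rtl6 are shown over the 120 bases before the start, in the direction of transcription, since their CRE letters (in capitals) lie there. The full CRE began 49 bases before the start in Pacrgl and 20 bases before it in Mrm3, and the half-site of Rtl6 began 45 bases before it.
Pacrgl, chr5:48372272-48372391, plus strand: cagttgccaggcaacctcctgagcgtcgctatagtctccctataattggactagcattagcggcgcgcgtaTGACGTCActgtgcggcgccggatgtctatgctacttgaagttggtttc
Mrm3, chr11:76243616-76243735, plus strand: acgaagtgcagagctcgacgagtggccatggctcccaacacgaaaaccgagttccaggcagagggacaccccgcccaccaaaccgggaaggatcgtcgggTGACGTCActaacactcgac
Rtl6, chr15:84557824-84557943, minus strand: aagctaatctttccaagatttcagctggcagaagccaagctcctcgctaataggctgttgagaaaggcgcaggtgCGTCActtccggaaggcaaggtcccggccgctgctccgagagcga

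In Rmdn3 and Coq7 the half-site lay after the start, from base 12 and base 39 of the transcript, and 30 bases around it are shown with the half-site in capitals.
Rmdn3, chr2:119157007-119157036, minus strand: gcagagcctcgtgCGTCAtctccacgcgcg
Coq7, chr7:118533307-118533336, minus strand: cggtccgcggcatctatgCGTCAtcaccct

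The windows of Stk16, Imp3 and D430019H16Rik held no CRE half-site. Imp3 and Stk16 are shown for contrast over the 120 bases before the start, with the CCAAT box (CCAAT, or ATTGG on the other strand) in capitals. Imp3 carried a pair of them in opposite orientation, beginning 98 and 87 bases before the start.
Imp3, chr9:56937380-56937499, plus strand: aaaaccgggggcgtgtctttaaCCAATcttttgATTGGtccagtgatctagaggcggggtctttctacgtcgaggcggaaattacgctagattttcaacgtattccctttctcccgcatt
Stk16, chr1:75210709-75210828, plus strand: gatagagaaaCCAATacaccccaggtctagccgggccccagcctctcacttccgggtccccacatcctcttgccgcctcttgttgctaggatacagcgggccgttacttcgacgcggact

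A CCAAT box lay in 4 of 8 windows (Stk16, Imp3, Coq7 and Pacrgl; 37.4% of all windows and 37.0% of those of measured genes), a GC box (GGGCGG, or CCGCCC on the other strand) in 3 of 8 (Rmdn3, Mrm3 and D430019H16Rik; 35.7% and 57.1%), and the letters TATAAA in 0 of 8 (13.6% and 9.98%).

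**Figure D1:**
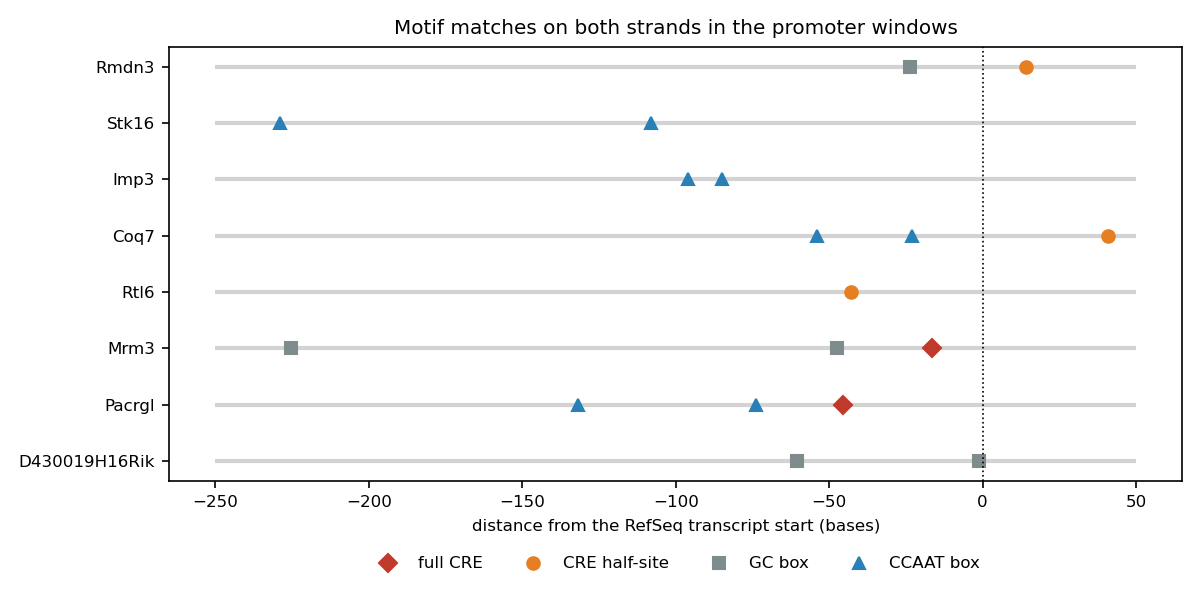
Positions of motif matches on both strands in the 300-base promoter windows of the 8 genes, in bases from the RefSeq transcript start (dotted line). Full CREs lie close before the start in Mrm3 and Pacrgl, the half-site of Rtl6 lies before it and those of Rmdn3 and Coq7 after it, while Stk16, Imp3 and D430019H16Rik have neither.

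Values below are log2 levels as the authors' GCRMA gave them, so a difference of 1 is a doubling. Levels of different probe sets are not comparable with each other, since each hybridises with its own strength. The array medians lay between 4.234 and 4.466. The control kainate replicate 3 array had the narrowest spread: its levels had an interquartile range of 3.743, while on the other arrays it was 4.396 to 4.612. Deviations from the group means correlated between the replicate 1 arrays of different groups at 0.368 to 0.848. Creb1, at percentile 45.0 of the mean levels in its brightest probe set, stood at 3.89 ± 0.10 (SD, n = 3) in control saline and 3.87 ± 0.06 in mutant saline arrays. Where its probe sets lie relative to the disrupted part is not known, so these levels do not check the labels.

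The mitochondrial genes went in both directions. Rmdn3 read 8.27, 7.82 and 7.97 in control saline and 7.16, 6.95 and 7.03 in mutant saline arrays. After kainate it read 8.06, 7.93 and 7.81 in controls and 7.26, 7.02 and 6.89 in mutants. All 6 mutant arrays lay below all 6 control arrays. The difference, mutant minus control, was -0.97 (SE 0.13, n = 3) under saline and -0.88 (SE 0.13) under kainate, which is 1.97-fold and 1.84-fold lower. In bulk tissue, fewer cells of a type and less RNA per cell cannot be told apart, here and for the other genes.

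Coq7 was the gene of the 8 that was higher in mutants. Its levels were 7.22, 7.24 and 7.12 in control saline and 7.99, 8.05 and 8.15 in mutant saline arrays. After kainate they were 7.33, 6.75 and 6.50 in controls and 8.08, 7.998 and 8.07 in mutants. The genotypes did not overlap at either treatment, and the mutants varied little (SD 0.08 under saline and 0.05 under kainate) beside the control kainate arrays (SD 0.42). Mutants were 1.83-fold higher under saline (0.87, SE 0.17) and 2.28-fold higher under kainate (1.19, SE 0.17). Without the control kainate replicate 1 array, where Coq7 was brightest in that group, the difference under kainate was 1.42. Without control kainate replicate 3, where Coq7 was dimmest in that group, the difference was 1.01.

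Mrm3 was measured by a pair of probe sets. The brighter one, at percentile 59.1, read 5.82, 5.91 and 5.88 in control saline and 5.32, 5.22 and 5.02 in mutant saline arrays. After kainate it read 5.80, 5.13 and 5.90 in controls and 5.11, 4.67 and 4.79 in mutants. The genotypes were apart at each treatment, yet the control kainate replicate 2 array (5.13) lay within the range of the mutant saline arrays. The differences were -0.69 (SE 0.19) under saline and -0.75 (SE 0.19) under kainate. The dimmer probe set, at percentile 47.4, gave -0.19 (SE 0.18) and -0.17 (SE 0.18), and its arrays overlapped between the genotypes at both treatments. The pair therefore differed in size, and under kainate the dimmer one kept its sign in 18 of 20 alternative analyses.

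Imp3, the ribosome assembly gene, had the most even control saline levels, at 8.30, 8.32 and 8.31. Its mutant saline levels were 7.56, 7.60 and 7.67. After kainate it read 8.08, 7.90 and 7.70 in controls and 7.18, 7.50 and 7.26 in mutants. The 4 groups stepped down with no overlap from control saline to control kainate, mutant saline and mutant kainate. The genotype difference was -0.70 (SE 0.11) under saline and -0.58 (SE 0.11) under kainate, or 1.62-fold and 1.49-fold lower.

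Stk16 was likewise lower in mutants by its brighter probe set, at percentile 76.1. The levels were 7.96, 7.79 and 8.04 in control saline and 7.22, 7.07 and 7.25 in mutant saline arrays. They were 8.19, 7.70 and 7.86 in control kainate and 7.08, 6.79 and 6.71 in mutant kainate arrays. Every mutant array lay below every control array, with differences of -0.75 (SE 0.14) under saline and -1.06 (SE 0.14) under kainate. The dimmer probe set (percentile 35.2) is of the kind whose suffix marks probes shared within a sequence family. It gave -0.07 (SE 0.15) under saline and -0.39 (SE 0.15) under kainate. Its kainate value leaned on the control kainate replicate 3 array, which read 3.99 against 3.26 and 3.55 on the other two, and was -0.20 without that array.

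Rtl6 read 7.88, 7.68 and 8.06 in control saline, 7.95, 7.94 and 7.63 in control kainate, 7.11, 6.73 and 6.88 in mutant saline, and 7.15, 7.13 and 6.64 in mutant kainate arrays. No mutant array reached the lowest control array. Its differences were -0.97 (SE 0.17) under saline and -0.87 (SE 0.17) under kainate, so that mutants stood at 1.96-fold and 1.82-fold lower levels. D430019H16Rik, the brightest of the group at percentile 93.9, read 10.31, 10.02 and 10.18 in control saline and 9.88, 9.85 and 9.80 in mutant saline arrays. After kainate its levels were 10.10, 10.24 and 9.96 in controls and 9.38, 9.63 and 9.49 in mutants. The genotypes were again apart, by -0.33 (SE 0.10) under saline and -0.60 (SE 0.10) under kainate.

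**Figure D2:**
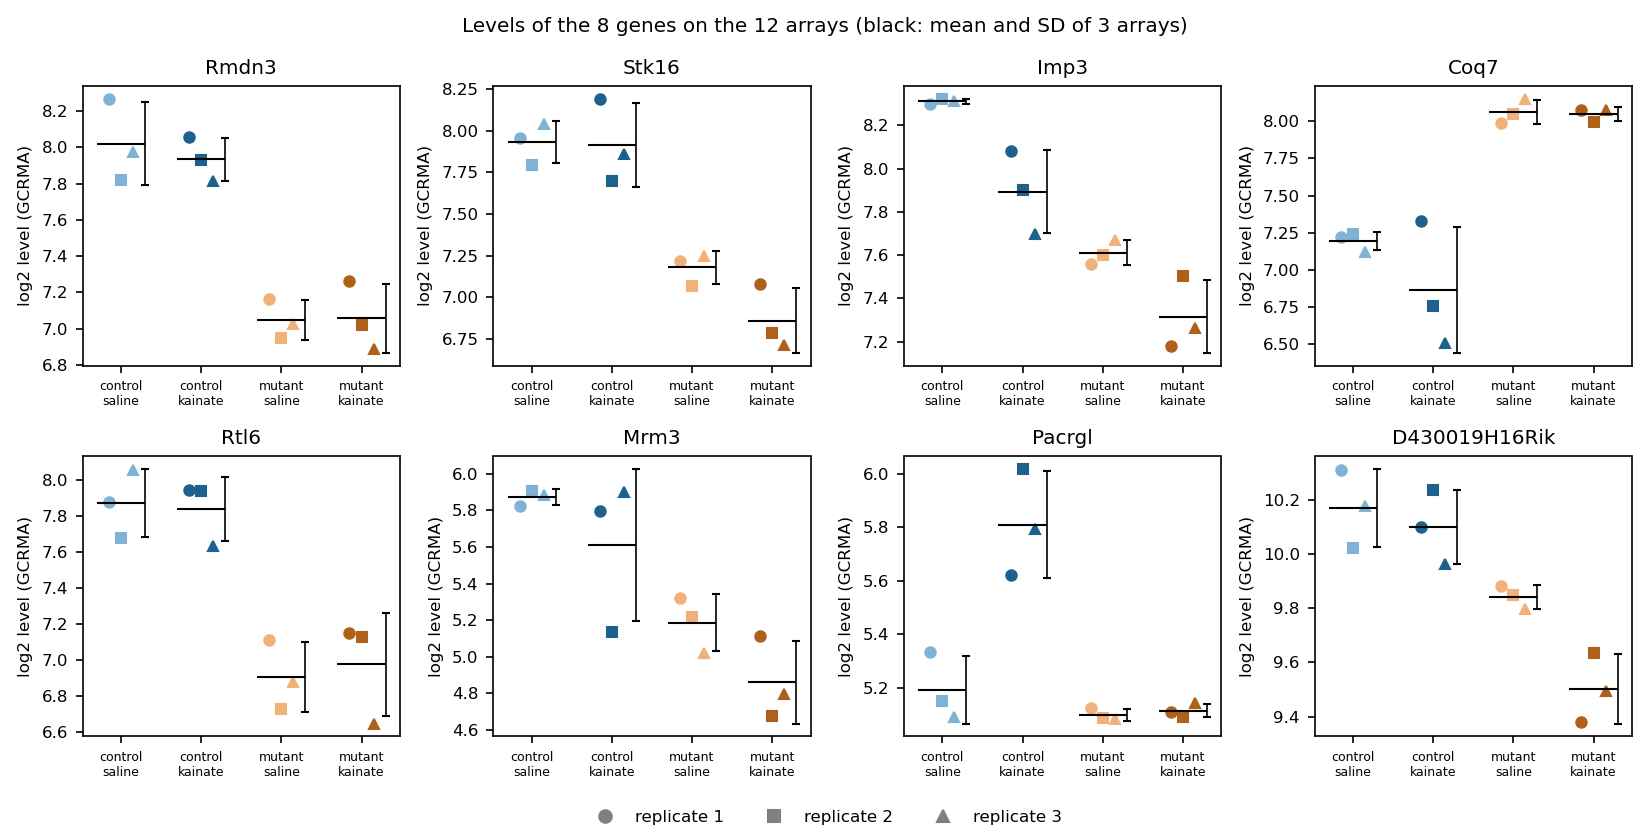
Log2 level of each gene, by its brightest probe set, on the 12 arrays; points are arrays, shaped by replicate number, and black lines are the mean and SD of 3 arrays. Coq7 is higher in the mutants, 6 genes are lower in them at both treatments, and Pacrgl differs mainly under kainate; the axes do not start at 0.

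Pacrgl had a different pattern from the other 7. Its brighter probe set (percentile 58.5) read 5.33, 5.15 and 5.09 in control saline and 5.12, 5.09 and 5.08 in mutant saline arrays, which overlap. After kainate it read 5.62, 6.02 and 5.79 in controls, above every other array, and 5.11, 5.09 and 5.14 in mutants. The genotype difference was -0.09 (SE 0.10) under saline and -0.70 (SE 0.10) under kainate, or 1.07-fold and 1.62-fold lower. The 6 mutant arrays spanned 5.08 to 5.14, with SDs of 0.02 in both groups. The suffix of this probe set marks probes that did not meet the array maker's usual design rules, and that of the dimmer one (percentile 48.2) marks shared probes. The dimmer one was 4.24, 4.11 and 4.22 in control saline, 4.26, 4.40 and 4.38 in control kainate, 4.16, 4.03 and 4.02 in mutant saline, and 3.99, 4.06 and 4.13 in mutant kainate arrays. It too was highest in control kainate arrays, with differences of -0.11 (SE 0.08) under saline and -0.29 (SE 0.08) under kainate.

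**Figure D3:**
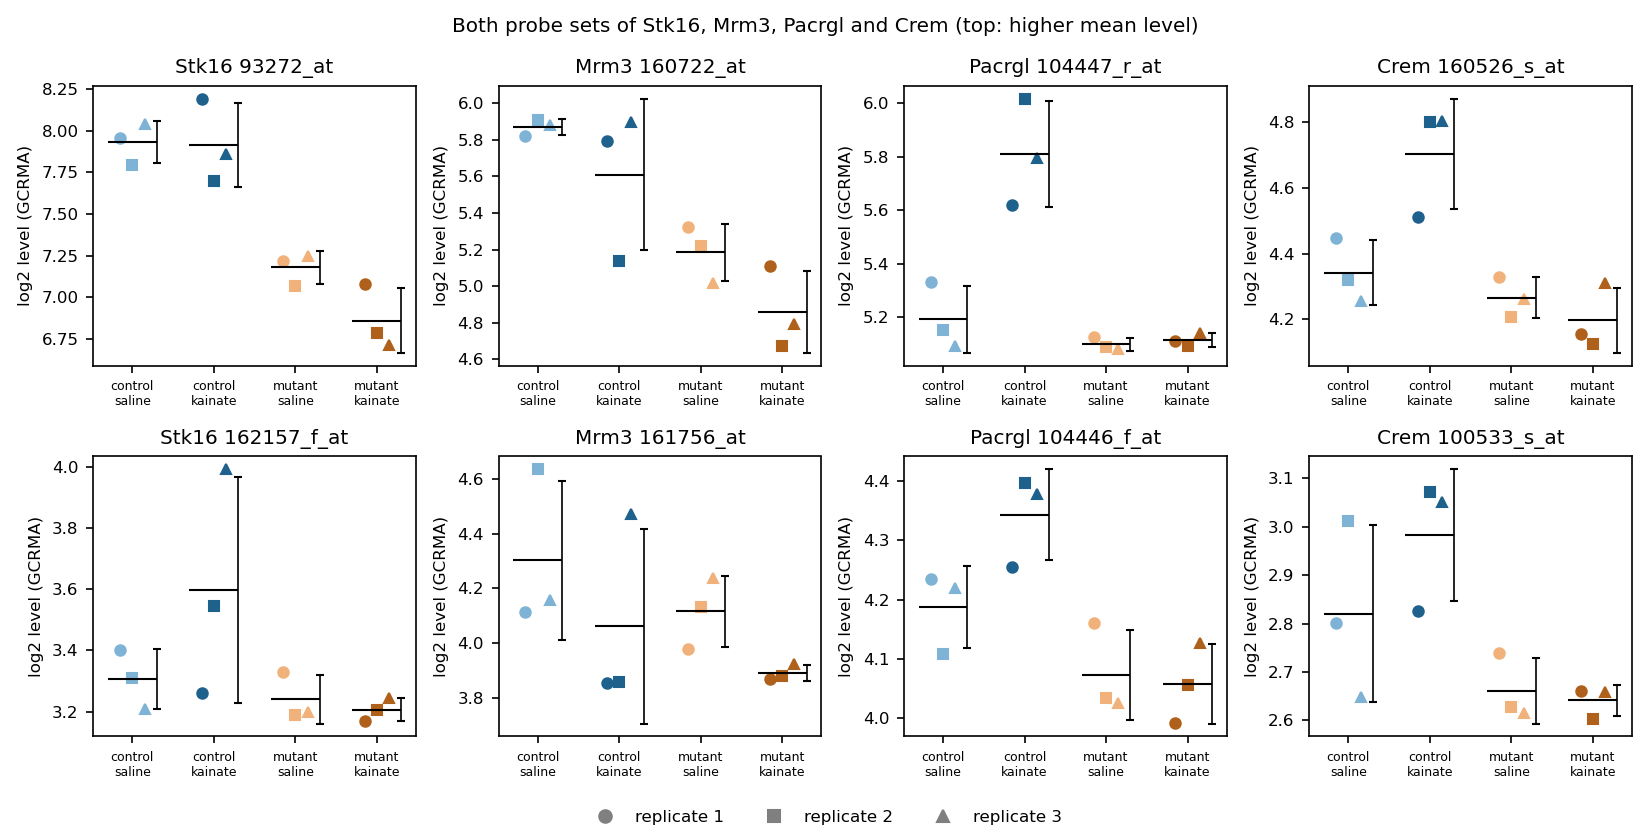
Log2 levels on the 12 arrays for both probe sets of Stk16, Mrm3, Pacrgl and, for comparison, Crem; points are arrays, shaped by replicate number, with the mean and SD of 3 arrays in black. Both Pacrgl probe sets are highest in control kainate arrays. Under saline both of them, and the dimmer probe sets of Stk16 and Mrm3, overlap between the genotypes. The axes do not start at 0.

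Counting genes by their brightest probe set, the genotypes did not overlap under saline for 7 of 8 (6 lower and 1 higher in mutants) and under kainate for 8 of 8 (7 lower and 1 higher). Over all probe sets 3.24% were lower and 3.85% higher in this way under saline, and 8.99% were apart under kainate (4.97% lower and 4.03% higher). For 6 of 8 (5 lower and 1 higher) all 6 mutant arrays lay apart from all 6 control arrays, against 0.242% of all probe sets lower and 0.733% higher. In limma, a linear model fitted to all probe sets, all 8 passed for the difference averaged over treatments (Benjamini-Hochberg adjusted p under 0.05, 7 lower and 1 higher), where 0.193% of 12422 probe sets passed as lower and 0.419% as higher. Under saline Rmdn3 and Imp3, 2 of the 8, passed as lower (0.0322% of probe sets), and under kainate 4 as lower (0.137%) and 1 as higher (0.217%). The genes were chosen for this contrast, so nothing is read from these counts. In each of the analyses with 1 choice altered, the 8 brightest probe sets kept the sign of each of the 3 genotype differences. The calls were less stable, and since the genes were chosen by the same values, nothing is read from how often they held. With 1 array left out, the averaged call held in 12 of 12 fits for Rmdn3, Stk16, Imp3, Coq7 and Rtl6, in 7 for D430019H16Rik, in 2 for Mrm3 (without control kainate replicate 2 or mutant kainate replicate 1) and in 1 for Pacrgl (without control kainate replicate 1). Under saline it held in 7 of 12 for Rmdn3 and 3 of 12 for Imp3. Under kainate it held in 10 of 12 for Stk16, 8 for Coq7, 6 for Pacrgl, 5 for Rmdn3 and 1 for D430019H16Rik.

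**Figure D4:**
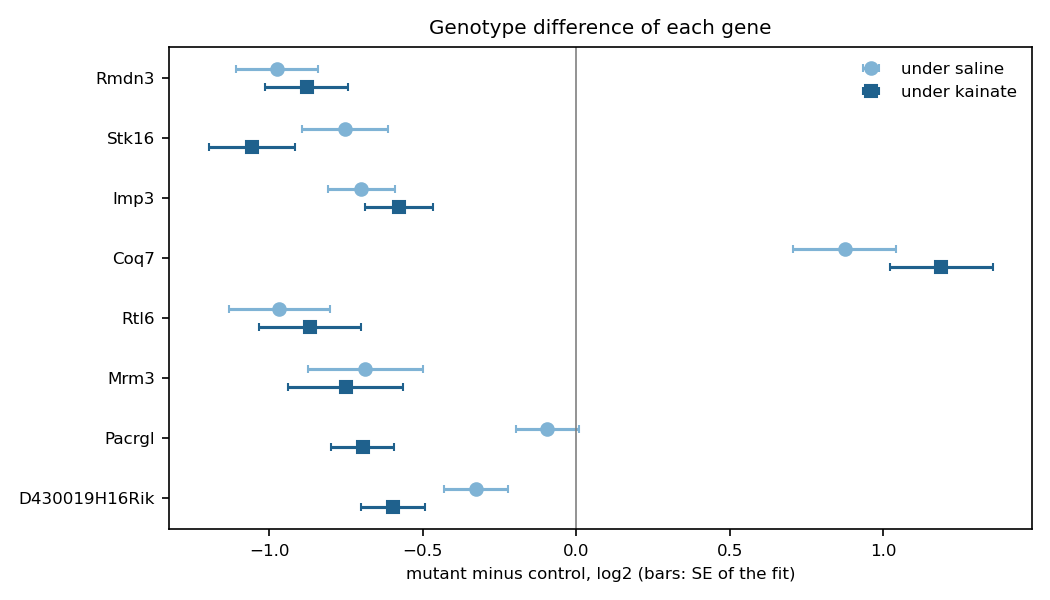
Difference between mutant and control arrays (log2, with the SE of the fit) for each gene under saline and under kainate, 3 against 3 arrays at each treatment. Differences under the 2 treatments lie close together for Rmdn3, Rtl6, Imp3 and Mrm3, while Pacrgl runs from -0.09 under saline to -0.70 under kainate.

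The kainate response, averaged over the genotypes, asks whether these genes moved within 1 hour of the injection. None of the 8 passed in limma, where 0.942% of probe sets did. Of those, 66 were higher (0.531%) and 51 lower (0.411%), or 51 and 11 after centring each array on its median. At an unadjusted p under 0.05 there were 4 of the 8, and 1481 of the 12422 probe sets. Through the shared spread, that count is not wholly free of how the genes were chosen. The median of the 8 was -0.17 and that of all probe sets 0.03, or -0.05 over those above the median level. Imp3 came closest, at -0.36 (SE 0.08, adjusted p = 0.0676), with kainate arrays below saline arrays in controls (-0.42, SE 0.11) and in mutants (-0.30, SE 0.11). Kainate arrays lay apart from saline arrays in 7.04% of probe sets in controls (4.75% downwards) and in 12.4% in mutants (7.39% downwards and 4.98% upwards). Without the control kainate replicate 1 array Imp3 passed (-0.40, adjusted p = 0.0259), and the alternatives gave it adjusted p between 0.00316 and 0.227.

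In control animals, Pacrgl was the gene of the 8 that passed for kainate. It rose 1.54-fold (0.62, SE 0.10, n = 3, adjusted p = 0.0365 in limma), and 0.33% of probe sets passed there, 0.282% as higher and 0.0483% as lower (35 and 6, or 28 and 0 after centring). The mutants gave 0.02 (SE 0.10, adjusted p = 1.00), and none of the 8 passed there, against 0.298% of probe sets, 0.266% as higher and 0.0322% as lower. Imp3, Stk16 and D430019H16Rik had an unadjusted p under 0.05 in mutants, as did 780 of the 12422 probe sets. The difference between the responses was -0.60 (SE 0.15, unadjusted p = 0.0019, adjusted p = 0.939). This test called 0 of 12422 probe sets, and 107 had an unadjusted p under 0.05. The response in controls, the difference between the responses and the genotype difference under kainate share the control kainate arrays. The p-values of Pacrgl in the first pair are thus not independent of how the gene was chosen. For the other genes too, a kainate response within 1 genotype shares arrays with the genotype difference at each treatment. Their p-values within a genotype, here and below, carry the same limit.

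The call of Pacrgl in controls was not stable. It held in 2 of the 12 analyses that left out 1 array, and alternatives put the adjusted p between 0.00322 and 0.766, while the size stayed between 0.51 and 0.78. Leaving out control saline replicate 2 or 3, control kainate replicate 2 or 3, or any mutant array ended it, with adjusted p between 0.0725 and 0.229. By replicate number the rise was 0.29, 0.87 and 0.70, and with replicates 2 and 3 alone it was 0.78 (adjusted p = 0.0344). The dimmer Pacrgl probe set gave 0.16 after kainate in controls (SE 0.08, adjusted p = 0.729) and -0.02 in mutants (SE 0.08), and its kainate arrays lay above its saline arrays in controls, as did 2.29% of probe sets.

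The remaining genes gave kainate differences that did not pass in either genotype. Rmdn3 stood at -0.09 in controls and 0.01 in mutants (SE 0.13 each), and Rtl6 at -0.03 and 0.07 (SE 0.17 each). Stk16 had -0.01 in controls and -0.32 in mutants (SE 0.14 each), and D430019H16Rik -0.07 and -0.34 (SE 0.10 each), with no overlap between its saline and kainate arrays in mutants. Mrm3 had -0.26 and -0.33 (SE 0.19 each). Coq7 had -0.33 in controls and -0.02 in mutants (SE 0.17 each), and without the control kainate replicate 1 array its value in controls was -0.57 (adjusted p = 0.049). Without control kainate replicate 3 the value of Coq7 in controls was -0.15 and did not pass.

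**Figure D5:**
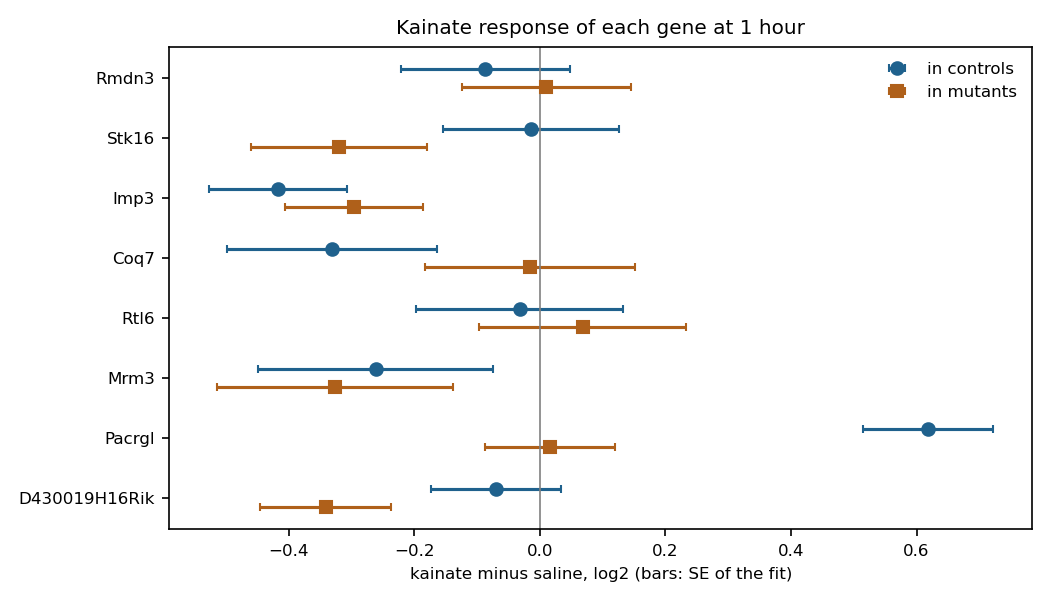
Kainate minus saline (log2, with the SE of the fit) for each gene in controls and in mutants, 3 against 3 arrays in each genotype. Pacrgl in controls (0.62) lies apart from its value in mutants (0.02), and Imp3 is below 0 in both genotypes (-0.42 and -0.30).

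The genes whose profiles over the 12 arrays lay closest to each member, by the root mean square distance between profiles centred on their own means, are given as a description. Of the 24 nearest (3 for each), 8 were other members, which were chosen for a genotype difference and so resemble each other by that choice. None was a member for Imp3, Coq7, Pacrgl or D430019H16Rik. Rmdn3 and Rtl6 were each other's nearest of all genes (distance 0.13, where their own profiles spread by 0.48 and 0.49), and Stk16 was nearest to Rmdn3 (0.17). Sez6 was the third nearest to Rmdn3 (0.20) and to Mrm3 (0.25). Pacrgl lay nearest to Mageh1 (0.12), Crem (0.12) and Rb1 (0.15). The probe set of Mageh1 carries the same suffix as the brighter Pacrgl probe set, and that of Rb1 the suffix for shared probes. The brighter Crem probe set read 4.45, 4.32 and 4.26 in control saline, 4.51, 4.80 and 4.80 in control kainate, 4.33, 4.21 and 4.26 in mutant saline, and 4.16, 4.12 and 4.31 in mutant kainate arrays. Like Pacrgl it was highest in control kainate arrays, with a response of 0.36 in controls (SE 0.10, adjusted p = 0.384) and -0.07 in mutants (SE 0.10). The dimmer Crem probe set gave 0.16 in controls and -0.02 in mutants (SE 0.10 each), and its saline and kainate arrays overlapped in both genotypes. Crem is itself lost in the mutants, and where its probe sets lie relative to the disrupted part is not known. Coq7 lay nearest to Lsm2, Man2b1 and Tmem176a (0.16 to 0.17), which were higher in mutants by 0.88, 0.99 and 0.97 averaged over treatments. Rtl6 had Wfs1, a marker of CA1 pyramidal neurons, as its second nearest (0.19). Imp3 lay nearest to 0610012G03Rik, Eloc and Wdr61, Mrm3 to Xrcc1, and D430019H16Rik to Rgs14, Gspt2 and Sowaha. These distances are descriptions of 12 arrays in 4 groups.

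Partner genes of the same pathways were compared by lists drawn from textbook knowledge, without the members. For the averaged genotype difference none of their genes passed in limma, in either direction, where 0.612% of all probe sets did. This holds for 5 of 12 coenzyme Q synthesis genes that were measured (median 0.03) and 7 of 23 genes of mitochondrial rRNA modification and ribosome assembly (0.11). It holds as well for 61 mitochondrial ribosomal protein genes (0.05), a list formed only from measured genes. It also holds for 24 of 38 small subunit processome genes (0.05), 12 of 22 genes of contacts between the endoplasmic reticulum and mitochondria (0.05), and 2 of 3 kinases related to Stk16 (0.02). Of 22 genes derived from retrotransposon Gag, Peg10 and Rtl8c were measured (median -0.13). The median over all probe sets was -0.06, and over those above the median level it was 0.04. None of these list genes passed for the averaged kainate effect either, where 0.942% of probe sets did. At such shares few calls would be looked for in lists of this size, so nothing is read from their absence. Some list genes also lay low on the arrays, such as Mrpl3 (percentile 4.18) and Vdac1 (5.54). The gene with the smallest p in its own list was Tbl3 for the processome (-0.67, SE 0.17, adjusted p = 0.156) and Mrpl51 for the mitochondrial ribosome (0.21, SE 0.06, adjusted p = 0.232). In the other lists it was Bcap31 (0.15, SE 0.07), Coq10a (-0.11, SE 0.06), Peg10 (-0.14, SE 0.08), Nsun4 (0.35, SE 0.26) and Aak1 (0.05, SE 0.08), with adjusted p of 0.630 for the first 4 and 0.708 for Aak1.

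By position the 8 genes lay on 8 chromosomes (2, 1, 9, 7, 15, 11, 5 and 12 in the order of the first sentence). Stk16 shares chromosome 1 with Creb1, with 36 measured genes between them. For each gene the 5 measured genes on either side were read, 80 in all, and 0 passed for the averaged genotype difference in limma in either direction (0.612% of probe sets did). The medians of these neighbours ran from -0.11 beside D430019H16Rik to 0.19 beside Rtl6, and 0 of 10 passed beside Creb1 (median -0.08).

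Markers of cell types were read beside these values. Of 14 measured microglial markers 7 passed as higher in mutants for the averaged difference and 0 as lower, and their summed linear level was 2606 to 2916 in control saline, 3052 to 3370 in control kainate, 4851 to 5913 in mutant saline and 6072 to 7186 in mutant kainate arrays. Cx3cr1, Fcer1g, Fcgr3, Itgam and Ptprc of that list lay below the median level of the arrays. Among 4 CA1 pyramidal markers 2 passed as lower (Wfs1 by -1.04, SE 0.14, and Lefty1 by -0.99, SE 0.17) and 0 as higher. Lefty1 lay below the median level of the arrays. The summed level of the CA1 list was 1328 to 1647 in control saline and 1441 to 1695 in control kainate arrays. It was 905 to 1073 in mutant saline and 984 to 1078 in mutant kainate arrays. Among 4 markers of CA3 and CA2 pyramidal neurons (median 0.12) Bok passed as higher (0.69, SE 0.11) and 0 passed as lower. Rgs14 of that list went the other way, at -0.39 (SE 0.09). Among 7 astrocyte markers (median 0.17) only Gfap passed as higher (1.62, SE 0.21), and 0 passed as lower. The summed level of the astrocyte list was 10228 to 14053 in control saline and 13208 to 17579 in mutant saline arrays. It was 9146 to 14204 in control kainate and 10838 to 18013 in mutant kainate arrays, so the genotypes overlapped at each treatment. None of 8 markers of neurons in general, 8 of interneurons, 7 of oligodendrocytes, 4 of dentate granule neurons, 8 of endothelium and blood, 3 of choroid plexus or 4 of neighbouring tissue passed in either direction. The summed level of the neuronal list was 20599 to 21776 in control saline, 16824 to 20307 in control kainate, 19735 to 21253 in mutant saline and 17187 to 21152 in mutant kainate arrays, which overlap between the genotypes at each treatment. The part of these shifts in the levels of the 8 genes was not tested.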

How the data were processed

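RNA was measured on 12 arrays, each from a pool of 3 animals. The deposited table holds log2 values that the authors made with GCRMA in R 2.4.1, per the submitters' processing notes. By its usual design GCRMA subtracts background by probe sequence, equalises the arrays by quantiles and summarises probe sets. The GCRMA version is not given in the sources used here. Of 12488 probe sets 66 controls were left out and 12422 tested with no filter. The platform annotation gave 1 symbol to 10833, several to 396 and none to 1193.

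Group means were fitted to all 12 arrays with limma 3.58.1 in R 4.3.3 (residual degrees of freedom 8, prior 2.48). Two-sided p-values were adjusted across the 12422 probe sets (Benjamini-Hochberg), with a threshold of 0.05. Errors of differences are SEs of the fit. In this balanced design the estimate of the averaged kainate effect is independent of that of each genotype difference. Its p-value is not, because both use the same residual spread of a probe set. The fit was tested on simulated data. The number of arrays limits the precision.

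Members and lists were chosen with earlier results of these data known. Named were the members, Creb1 and Crem, genes of pathway lists that passed (otherwise the one with the smallest p), passing neighbours, and the 3 nearest profiles per member. Marker genes were named after their values were seen. Each gene was represented by its brightest probe set unless stated. RefSeq annotation of GRCm38.p6 gave promoters, chromosomes and gene order, with 8237 genes placed and 14 not. Alternatives were the replicate block, replicate 1 as a batch, quantile normalization, median centring, a filter on low levels, a trended robust prior, array weights, only the arrays compared, and each array left out. Replicates 2 and 3 alone were added after seeing the data.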

Additional observations from a re-analysis of the deposited data

How the results depend on the processing

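Counts over all probe sets moved with the model. For the averaged kainate effect 117 probe sets passed, and 245 with the replicate block, 333 with replicate 1 as a batch, 62 with centred arrays, 2036 with array weights, 778 with replicates 2 and 3 only (chosen after seeing the data), and 52 to 284 with 1 array left out. In controls 41 passed, and 380 with array weights, 146 with replicates 2 and 3 only, 22 with only the arrays compared, and 27 to 56 with 1 array left out. In mutants 37 passed, and 64 with replicate 1 as a batch, 1619 with array weights, 94 with replicates 2 and 3 only, and 26 to 51 with 1 array left out. For the interaction 0 passed, and 8 with array weights and 0 to 5 with 1 array left out. Array weights were estimated gene by gene. Of the 8 genes, 0 passed for the averaged kainate effect, and 1 with replicate 1 as a batch (Imp3), 3 with array weights (Imp3, Mrm3 and Pacrgl), 1 with replicates 2 and 3 only (Pacrgl), and 0 to 2 with 1 array left out. In controls 1 passed (Pacrgl), and 0 with the replicate block (adjusted p = 0.0702), quantile normalization, centred arrays, the trended prior or only the arrays compared, and 0 to 2 with 1 array left out. In mutants 0 passed, and 2 with array weights (Imp3 and D430019H16Rik). For the interaction 0 of the 8 passed under each alternative. For the genotype difference 17 probe sets passed under saline, 44 under kainate and 76 averaged, and 8 to 20, 12 to 38 and 41 to 103 with 1 array left out. With the replicate block these were 30, 67 and 124, with array weights 680, 99 and 478, with replicate 1 as a batch 38, 77 and 140, with centred arrays 12, 20 and 51, with replicates 2 and 3 only 2, 10 and 47, and with only the arrays compared 13 under saline and 5 under kainate. Besides Pacrgl in controls, the replicate block ended the genotype calls of Imp3 under saline, D430019H16Rik under kainate and Pacrgl averaged, and no other call of the 8. The replicate numbers were not taken to pair the arrays, since replicate 3 arrays deviated from their group means with correlations of -0.0109 to 0.621, not all over the limit of 0.1. The values under that limit (-0.0109 and -0.00323) were pairs with the control kainate replicate 3 array. Replicate 2 arrays gave 0.302 to 0.583, and arrays of different numbers -0.722 to 0.568. The filter on low levels gave no value for the dimmer probe sets of Stk16, Mrm3 and Pacrgl, which it removed. The causes of these shifts were not tested.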
